A study of Mus musculus with 6 samples.

Results

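CA2-type pyramidal neurons are described here across 6 single-cell libraries of mouse hippocampus. They were chosen from the counts themselves, as barcodes of the neuron gate in which the unique molecular identifiers (UMIs) of Amigo2, Strip2, Map3k15 and St8sia6 summed to at least 4, came from at least 2 of these genes, and exceeded the sums of matching panels for dentate gyrus (DG), CA1 and CA3. The gate asked for at least 2 UMIs of Rbfox3, Syt1 and Snap25 together and at most 1 UMI of Gad1 and Gad2 together. The rule found 268 CA2-type barcodes among 50224 barcodes in all, against 144 for CA1, 2255 for CA3 and 6739 for DG.

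The libraries were made with 10x Chromium 3′ chemistry from hippocampi of mice 6 months old, 2 samples in each of 3 groups. 5×FAD mice carry human transgenes with familial Alzheimer's disease mutations, APP among them, driven by the neuronal Thy1 promoter, and they deposit amyloid-β plaques. One 5×FAD group received PBS (5xFAD_PBS), the other received Aβ3FTnAu (5xFAD_Ab3FTnAu), which the series title places among protein-gold nanostructures aimed at human amyloid-β plaques, and wild-type littermates received PBS (WT_PBS). The labels state no dose, route or length of treatment. They also do not say whether the 2 samples of a group are 2 different mice, so p-values measure the spread between these samples, which may be technical.

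CA2 is the short segment of the hippocampal pyramidal layer between CA1 and CA3. Its pyramidal neurons resist long-term potentiation at the inputs from CA3, are wrapped in perineuronal nets early and densely, respond to vasopressin, and are needed for social recognition memory. The identity of these cells is known to depend on the mineralocorticoid receptor Nr3c2, and their limited plasticity on Rgs14, a regulator of G protein signalling, together with strong calcium buffering and extrusion.

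The members carried the rule with unequal margins. Of the 268, 114 had UMIs of 2 panel genes, 115 of 3 and 39 of all 4. The panel sum had a median of 6 UMIs and reached 21. It was at least 2 times the next highest panel in 250 members and only 1 UMI above it in 11. Depth ran from 3409 to 51557 UMIs per member, with a median of 11568. Strip2 carried most of the selection, with a UMI in 255 members, ahead of St8sia6 in 219, Map3k15 in 139 and Amigo2 in 116.

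The label was checked against 14 CA2 genes that the rule did not read. The class levels that follow are descriptions, with no test, because the members were chosen against these same classes. In depth-scaled counts of a class sum (CPM, mean ± SD over the 6 samples), Rgs14 stood at 40.4 ± 14.4 in CA2-type sums, 11.2 in CA1, 3.72 in CA3 and 11.6 in DG. Cacng5, an auxiliary subunit of AMPA receptors, stood at 36.6 ± 11.0, against 0 in CA1, 0.79 in CA3 and 5.02 in DG. Ptpn5, the striatal-enriched phosphatase STEP, stood at 264 ± 56.5, against 68.8, 57.4 and 52.4 in the same order. Each of these genes was higher in the CA2-type sum than in the CA3 and DG sums of the same library in 6 of 6 libraries.

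Nr3c2 was the most abundant identity gene, at 2228 ± 541 CPM in CA2-type sums against 1058 in CA1, 1004 in CA3 and 1067 in DG. Pcp4, a calmodulin-binding protein, and Ntf3, the neurotrophin NT-3, set CA2-type barcodes apart from CA1 and CA3 but not from DG: Pcp4 stood at 54.0 CPM in CA2-type and 51.9 in DG sums, and Ntf3 at 71.6 and 53.6. Versican (Vcan), a perineuronal net proteoglycan, was at 44.1 CPM against 5.81 in CA3, and Necab2, a neuronal calcium-binding protein, at 47.1 against 13.1. The vasopressin receptor gene Avpr1b was near the limit of counting, with UMIs in 10 members and 2.5 CPM, and 0 in CA1 and CA3 sums.

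Actn2 and Adora1 went against the label. Actn2, which encodes an actin cross-linker, was at 28.4 CPM in CA2-type and 43.2 in CA3 sums, lower in 6 of 6 libraries. Adora1, the adenosine A1 receptor, was at 25.1 against 35.4 CPM, and above CA3 in 2 libraries. The CA3 gene Grik4, a kainate receptor subunit outside the rule, stood at 663 CPM in CA2-type sums, between 879 in CA3 and 251 in DG.

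**Figure D1:**
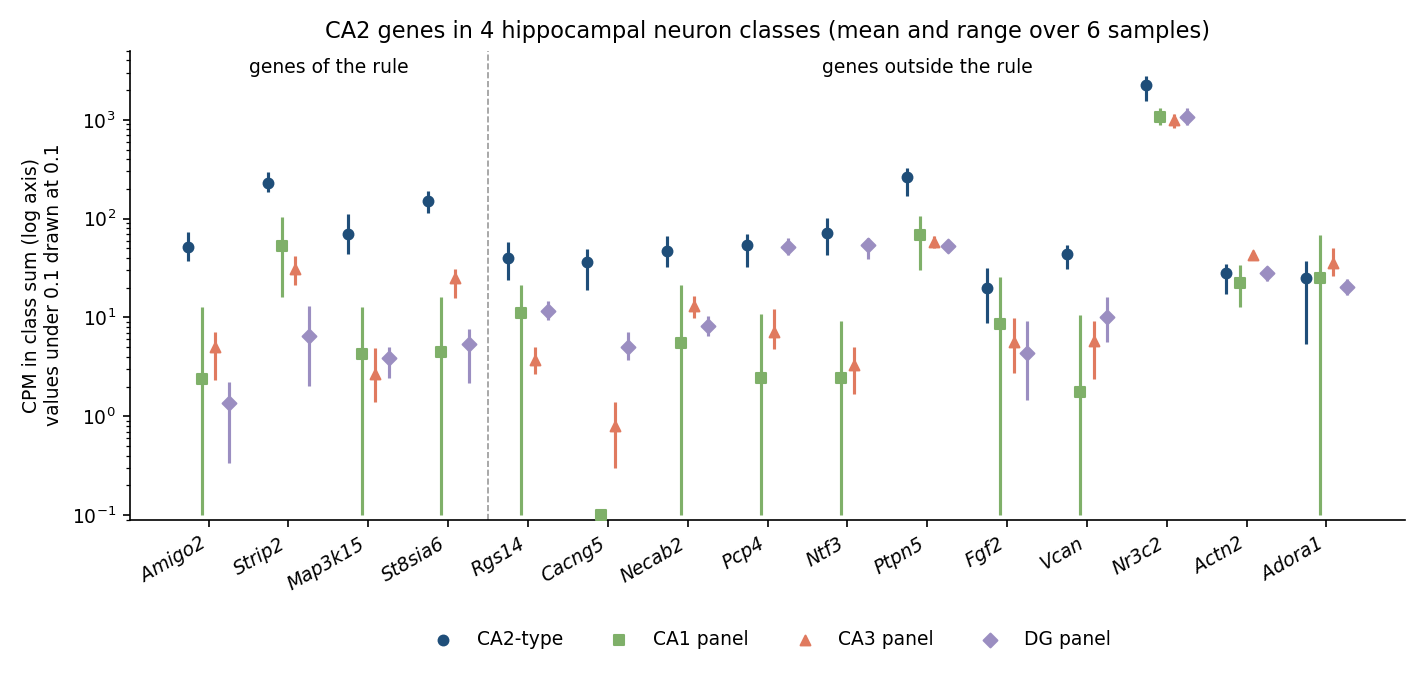
Levels of 15 CA2 genes in the sums of 4 neuron classes. The vertical axis is CPM on a log scale, each marker is the mean over 6 samples, each line runs from the lowest to the highest sample, and the dashed line separates the 4 genes that chose the CA2-type barcodes from 11 that did not. Rgs14, Cacng5, Necab2, Ptpn5 and Nr3c2 lie highest in the CA2-type sum, Pcp4 and Ntf3 lie about as high in DG, and Actn2 and Adora1 do not stand out.

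Detection per barcode gave the same order once depth was made equal. With each barcode thinned to 3000 UMIs, Rgs14 was found in 12.7% of CA2-type barcodes (exact Clopper-Pearson 95% interval 8.95 to 17.3, counting error only), 1.02% of CA3 and 3.45% of DG barcodes. Cacng5 was found in 10.4%, 0.133% and 1.68% in that order, and Ptpn5 in 57.5%, 15.3% and 13.7%. In 121 oligodendrocyte barcodes, which should lack these genes, Rgs14 and Cacng5 were found in 0, which allows a share of barcodes with a UMI of up to 2.48% (3 counts of 121), and Ptpn5 in 1.65%. Without thinning, the CA2-type shares were 38.1% for Rgs14, 29.5% for Cacng5 and 91.0% for Ptpn5, at sample medians of 9705 to 14024 UMIs, against 3535 to 3859 UMIs for oligodendrocytes.

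Not every member showed a second line of identity. A UMI of at least 1 of Rgs14, Pcp4, Necab2 and Cacng5 was present in 217 members and absent from 51. By library the share with such a UMI was 81.0% and 85.7% in WT_PBS, 76.2% and 73.3% in 5xFAD_PBS, and 79.2% and 87.3% in 5xFAD_Ab3FTnAu. At the edge of the rule, the 67 members with a panel sum of exactly 4 held 28.7 CPM of Rgs14 and 244 of Ptpn5, and the 201 with more held 42.3 and 295. Just outside, 87 barcodes with a sum of 3 held 44.1 and 245 CPM of the same genes, and 55 barcodes whose panel was tied with or below another held 15.4 and 101.

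Markers of other cell types were low but not absent. All 10 microglial markers had UMIs in the CA2-type sums, with a summed level of 157 to 260 CPM over the 6 libraries, below the CA3 mean of 225 CPM in 5 libraries and above it in 1. All 8 oligodendrocyte markers had UMIs, at 50.1 to 283 CPM, and all 6 astrocyte markers, at 2.2 to 25.1 CPM. Of 7 interneuron markers 6 had UMIs, at 10.6 to 43.5 CPM, and Gad2 was at 0. Of 5 endothelial and mural markers 3 had UMIs, with a mean summed level of 4.19 CPM against 2.63 in CA3 sums, and Cldn5 and Vtn were at 0. Of 3 Cajal-Retzius markers 2 had UMIs, at 4.07 CPM against 8.84 in CA3 sums. The third, Lhx1, was at 0, as it was in CA1 and CA3 sums. Of 2 mossy cell markers, Calb2 had 1 UMI and Drd2 was at 0.

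Genes with the widest gap between CA2-type and other sums were read off after their values were seen, so they describe these barcodes and test nothing. The gap was ranked against CA3, DG and the gated neurons that no panel assigned, and CA1 was not part of it. Gm43154 was at 214 CPM in CA2-type, 22.8 in CA1, 4.1 in CA3 and 17.8 in DG sums. Fyb2 was at 191, 29.7, 13.9 and 8.4 CPM in that order, and the fibrillar collagen gene Col11a1 at 292, 53.9, 41.9 and 14.6. Receptor genes were among them: the orexin receptor Hcrtr2 stood at 65.3 CPM against 2.4, 2.0 and 2.6, and the neurotensin receptor Ntsr2 at 74.3 against 8.5, 14.4 and 5.2. Kcnk2, which encodes the two-pore potassium channel TREK-1, stood at 226 against 77.7, 22.6 and 63.4. In sums of the unassigned neurons Gm43154, Fyb2 and Col11a1 stood at 10.3, 26.6 and 55.5 CPM. Hcrtr2, Ntsr2 and Kcnk2 stood there at 14.4, 6.8 and 66.2 CPM.

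Libraries differed in makeup in ways that touched every comparison of groups. Mitochondrially encoded genes stood at 87.0 and 282 CPM in the CA2-type sums of WT_PBS, 339 and 401 in 5xFAD_PBS, and 33.1 and 35.3 in 5xFAD_Ab3FTnAu. Malat1, a long noncoding RNA kept in the nucleus, took 106895 and 107735 CPM in WT_PBS, 112481 and 115433 in 5xFAD_PBS, and 71938 and 68955 in 5xFAD_Ab3FTnAu. Noncoding genes other than Malat1 ran the other way, from 4.63% and 6.66% of UMIs in WT_PBS through 6.06% and 5.82% in 5xFAD_PBS to 8.57% and 8.0% in 5xFAD_Ab3FTnAu. Ribosomal protein genes stood at 1430 and 1027, 1039 and 1117, and 766 and 719 CPM in the same order. The treated libraries thus lay apart from the other 4 in each of these measures. WT_PBS replicate 1 lay apart from replicate 2 in all of them but Malat1.

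**Figure D2:**
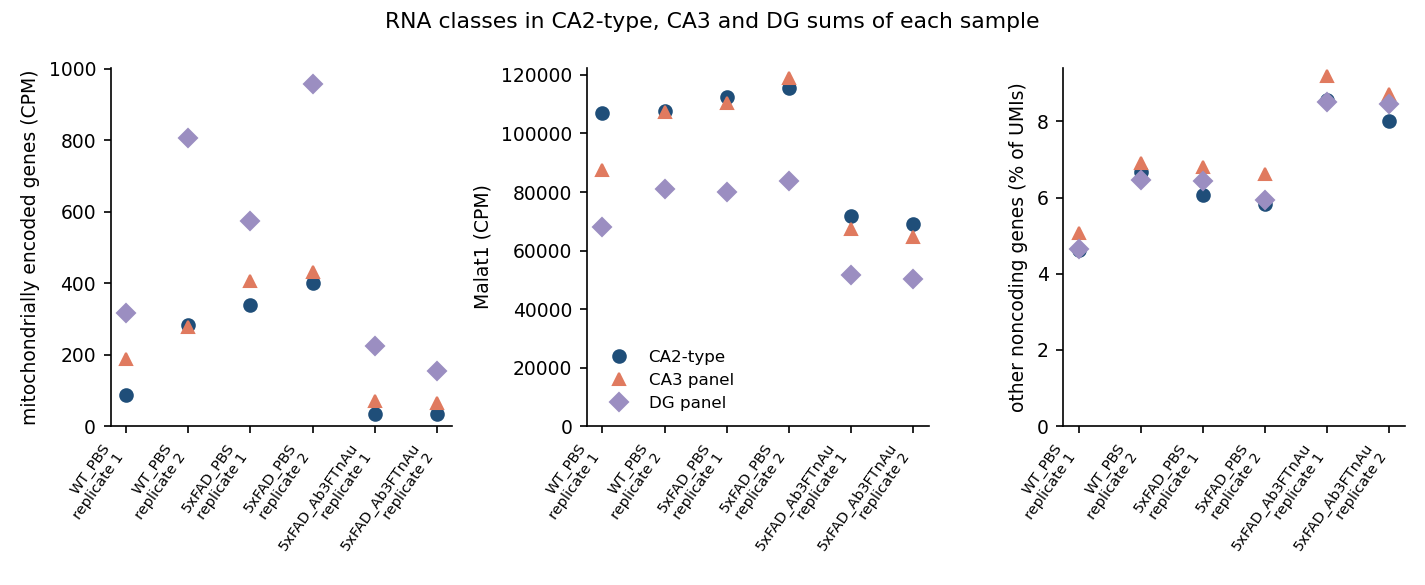
RNA classes in the CA2-type, CA3 and DG sums of each sample. The panels give CPM of mitochondrially encoded genes, CPM of Malat1 and the percent of UMIs in other noncoding genes, with 1 marker for each class and sample. Both 5xFAD_Ab3FTnAu libraries are lowest for the first pair of measures and highest for the last in all 3 classes.

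The same shift was present in CA3 and DG sums: Malat1 in CA3 stood at 64657 to 67347 CPM in the treated libraries and 87645 to 119081 in the others. CA2-type barcodes without any mitochondrial UMI made up 58.7% and 28.6% of WT_PBS, 33.3% and 13.3% of 5xFAD_PBS, and 76.6% and 73.0% of 5xFAD_Ab3FTnAu members. The part of this makeup in the group differences that follow was not tested, beyond refitting each comparison within barcodes with and without mitochondrial UMIs.

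The CA2-type share of neurons was higher in the treated libraries. Of the barcodes assigned to CA1, CA2, CA3 or DG by the panels, CA2-type barcodes were 2.62% (63 of 2409; exact 95% interval 2.02 to 3.33) and 1.14% (14 of 1225; 0.626 to 1.91) in WT_PBS. They were 1.56% (21 of 1346; 0.968 to 2.38) and 1.48% (30 of 2032; 0.998 to 2.10) in 5xFAD_PBS. They were 5.40% (77 of 1427; 4.28 to 6.70) and 6.51% (63 of 967; 5.04 to 8.26) in 5xFAD_Ab3FTnAu. Both treated libraries lay above all 4 others, outside the counting intervals of each, while the 5xFAD_PBS libraries lay between those of WT_PBS.

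The group means were 1.88 ± 1.04% in WT_PBS, 1.52 ± 0.0593% in 5xFAD_PBS and 5.96 ± 0.791% in 5xFAD_Ab3FTnAu (SD, n = 2 samples). The treated mean was 4.44 percentage points above 5xFAD_PBS and 4.08 above WT_PBS, each with p = 0.3333 in a two-sided exact permutation test over samples, and 5xFAD_PBS was 0.36 points below WT_PBS (difference -0.36, p = 1 in the same exact test). With 2 samples against 2, 0.3333 is the smallest p this test can give, so none of the 3 differences could pass 0.05. The direction between 5xFAD_PBS and WT_PBS rested on WT_PBS replicate 1: without it the difference was 0.375 points.

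Other denominators left the treated libraries highest. As a share of all gated neurons, CA2-type barcodes were 0.575% and 0.306% in WT_PBS, 0.580% and 0.493% in 5xFAD_PBS, and 1.39% and 1.43% in 5xFAD_Ab3FTnAu. Per 100 CA3 barcodes there were 10.6 and 4.47, 8.86 and 8.06, and 17.5 and 21.1 CA2-type barcodes in the same order. CA1 barcode numbers were lowest in the treated libraries, with 91 and 8 in WT_PBS, 16 and 22 in 5xFAD_PBS and 3 and 4 in 5xFAD_Ab3FTnAu. CA3 barcodes were 596 of 2409 and 313 of 1225 assigned in WT_PBS, and 237 of 1346 and 372 of 2032 in 5xFAD_PBS. They were 439 of 1427 and 298 of 967 in 5xFAD_Ab3FTnAu. DG barcodes were 1659 and 890, 1072 and 1608, and 908 and 602 of the same totals. The CA3 share was thus also highest, and the DG share lowest, in both treated libraries. A higher share was not particular to CA2-type barcodes.

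The rule reads 4 genes whose own levels set who is counted. Strip2 stood at 184 and 223 CPM in the WT_PBS members, 197 and 218 in 5xFAD_PBS and 296 and 263 in 5xFAD_Ab3FTnAu, and Amigo2 at 73.7 and 59.8, 37.7 and 61.0, and 38 and 41.2. With every barcode thinned to 3000 UMIs, the planned depth, the shares of panel-assigned neurons were 0.533% and 0.405%, 0.161% and 0.315%, and 1.17% and 1.86%. These came from only 1 to 7 CA2-type barcodes a library. Thinned to 8000 UMIs, a depth chosen after seeing the data, the shares were 2.53% and 1.67%, 1.48% and 2.98%, and 9.80% and 8.56%. These came from 6 to 35 CA2-type barcodes a library. Whether the higher share reflects more CA2 neurons in the suspension, or more RNA of these genes per neuron, cannot be told apart from panel counts.

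**Figure D3:**
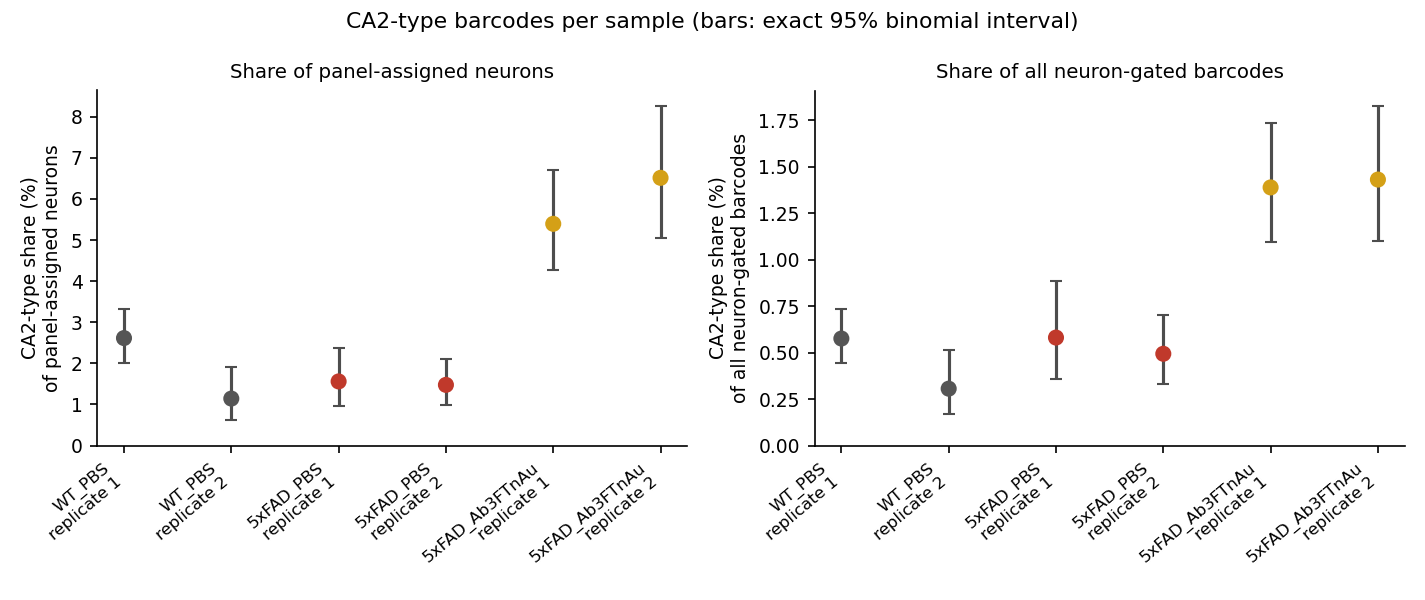
CA2-type barcodes per sample as a percent of panel-assigned neurons (left) and of all barcodes in the neuron gate (right). Points are samples coloured by group and bars are exact 95% binomial intervals, which cover counting error only. The treated samples sit at 5.40% and 6.51% on the left and 1.39% and 1.43% on the right, above the other 4 samples in both.

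Group differences in expression were tested on UMIs summed over the CA2-type barcodes of each library, 184100 to 849277 UMIs a library, with edgeR's quasi-likelihood test over 7139 genes and Benjamini-Hochberg adjustment, and a gene was called at an adjusted p under 0.05. In such sums a change in every neuron and a change in the mix of neurons cannot be told apart, so the median over single barcodes is given where it adds to the sum. Fold changes are log2 with their standard error (SE). The 3 comparisons share samples and are not independent of each other.

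Between 5xFAD_PBS and WT_PBS, 5 genes were called, 4 higher and 1 lower in 5xFAD_PBS. This was 0.0700% of the genes tested (0.0560% called higher and 0.0140% lower), and 714 genes had an unadjusted p under 0.05. The count moved with single libraries: 18 genes were called without WT_PBS replicate 1 and 485 without replicate 2, 1 and 0 without 5xFAD_PBS replicate 1 and 2, and 1 without either treated library. The calls were Nr3c2, Pde10a, Tshz2 and Nxph1 among the higher genes and Ly6h as the lower one. All 5 had values that did not overlap between the groups, as did 34.1% of all genes tested.

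Nr3c2, the mineralocorticoid receptor, was higher in 5×FAD members. It stood at 1604 and 1537 CPM in WT_PBS, 2247 and 2728 in 5xFAD_PBS, and 2501 and 2751 in 5xFAD_Ab3FTnAu. The 4 5×FAD libraries all lay above the WT_PBS pair, and the difference between 5xFAD_PBS and WT_PBS was 0.72 ± 0.13 (log2 ± SE, edgeR adjusted p = 0.0492). The gain was not in a few barcodes, since the median member held 15.8 and 13.6 Nr3c2 UMIs per 10000 in WT_PBS and 21.5 and 25.1 in 5xFAD_PBS. The gene lies at chr8:76899442-77245012 on the plus strand (mm10).

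The call for Nr3c2 was close to its threshold. It was kept in 7 of 19 alternative fits, in which the difference ran from 0.44 to 0.87, and the lowest value came from members without mitochondrial UMIs (adjusted p = 0.616, edgeR). CA3 sums had 819 and 967 CPM in WT_PBS and 979 and 1005 in 5xFAD_PBS. The difference was larger in CA2-type than in CA3 sums by 0.57 ± 0.19 and than in CA1 by 0.83 ± 0.22, and neither passed the test of that difference (edgeR adjusted p = 0.411 and 0.143).

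Pde10a, a phosphodiesterase that breaks down cAMP and cGMP, was also higher. It stood at 391 and 511 CPM in WT_PBS, 794 and 1012 in 5xFAD_PBS, and 634 and 662 in 5xFAD_Ab3FTnAu. The difference between 5xFAD_PBS and WT_PBS was 1.10 ± 0.19 (edgeR adjusted p = 0.0481), kept in 6 of 19 alternative fits with a range of 0.84 to 1.34. The median member rose with the sum, from 3.23 and 4.64 UMIs per 10000 to 6.05 and 8.34. Pde10a lies at chr17:8525372-8986648 on the plus strand (mm10).

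For Pde10a the difference itself set CA2-type sums apart in the fit of all libraries. It exceeded that in CA1 sums by 1.41 ± 0.25 (edgeR adjusted p = 0.000508) and that in CA3 sums by 0.88 ± 0.22 (adjusted p = 0.0392). CA1 sums held 780 and 796 CPM in WT_PBS and 747 and 622 in 5xFAD_PBS, and CA3 sums 467 and 561 against 562 and 645. The call of the excess over CA1 was kept in 8 of 11 alternative fits, with a range of 1.04 to 1.74. Without WT_PBS replicate 1 this excess was 1.10 and was not called. The excess over CA3 lay close to the threshold, and its alternative fits are not reported here.

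Ly6h, a surface protein that binds nicotinic acetylcholine receptors, was lower. It stood at 292 and 136 CPM in WT_PBS, 59.2 and 80.5 in 5xFAD_PBS, and 56.4 and 55.3 in 5xFAD_Ab3FTnAu. The difference between 5xFAD_PBS and WT_PBS was -1.66 ± 0.30 (edgeR adjusted p = 0.0492), and it was -0.92 without WT_PBS replicate 1, where it was not called (adjusted p = 0.508). CA3 sums showed the same spread inside WT_PBS, with 282 and 101 CPM, then 104 and 113 in 5xFAD_PBS, and the difference did not separate the classes (-0.72 ± 0.26, adjusted p = 0.564). Ly6h lies at chr15:75551268-75567255 on the minus strand (mm10).

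Tshz2, a teashirt zinc finger factor, owed its call to a pair of barcodes. The sums were 1.47 and 5.43 CPM in WT_PBS, 67.3 and 89.3 in 5xFAD_PBS, and 2.45 and 5.89 in 5xFAD_Ab3FTnAu, a log2 difference of 5.03 ± 0.64 between 5xFAD_PBS and WT_PBS (edgeR adjusted p = 0.00260). The raw count ratio was 34.2 (interval 9.11 to 289, counting error only). One barcode of each 5xFAD_PBS library, with 38 and 23 Tshz2 UMIs, held 92.4% of the group's Tshz2 UMIs, and no other member of any library had more than 1. Those 2 barcodes held 6.66% of the group's depth, 86.7% of its Ptprt UMIs, 67.9% of its Tox UMIs and 53.5% of its Chsy3 UMIs. Each had UMIs of 3 of the genes Rgs14, Pcp4, Necab2 and Cacng5, at depths of 39356 and 16003 UMIs and panel sums of 11 and 4. In the pair and the other 5xFAD_PBS members, Rgs14 stood at 36.1 and 28.4 CPM and Necab2 at 54.2 and 37.4. Pcp4 stood at 36.1 and 63.2, and Cacng5 at 18.1 and 32.2. Of the rule's genes, Amigo2 stood at 54.2 and 50.3, Map3k15 at 54.2 and 61.9, Strip2 at 145 and 213, and St8sia6 at 18.1 and 121. Each of these levels in the pair rests on 1 to 8 UMIs.

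Nxph1, a secreted ligand of neurexins, was the fifth call, at 2.95 and 0 CPM in WT_PBS, 35 and 52.2 in 5xFAD_PBS, and 7.36 and 15.3 in 5xFAD_Ab3FTnAu. The log2 difference was 4.22 ± 0.77 (edgeR adjusted p = 0.0492), the raw count ratio 19.2 (4.95 to 164), and 1 barcode held 56.8% of the group's UMIs of Nxph1. Its median was 0 in every library, as for Tshz2. Nxph1 lies at chr6:8948431-9249032 and Tshz2 at chr2:169633013-170071816, both on the plus strand (mm10).

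**Figure D4:**
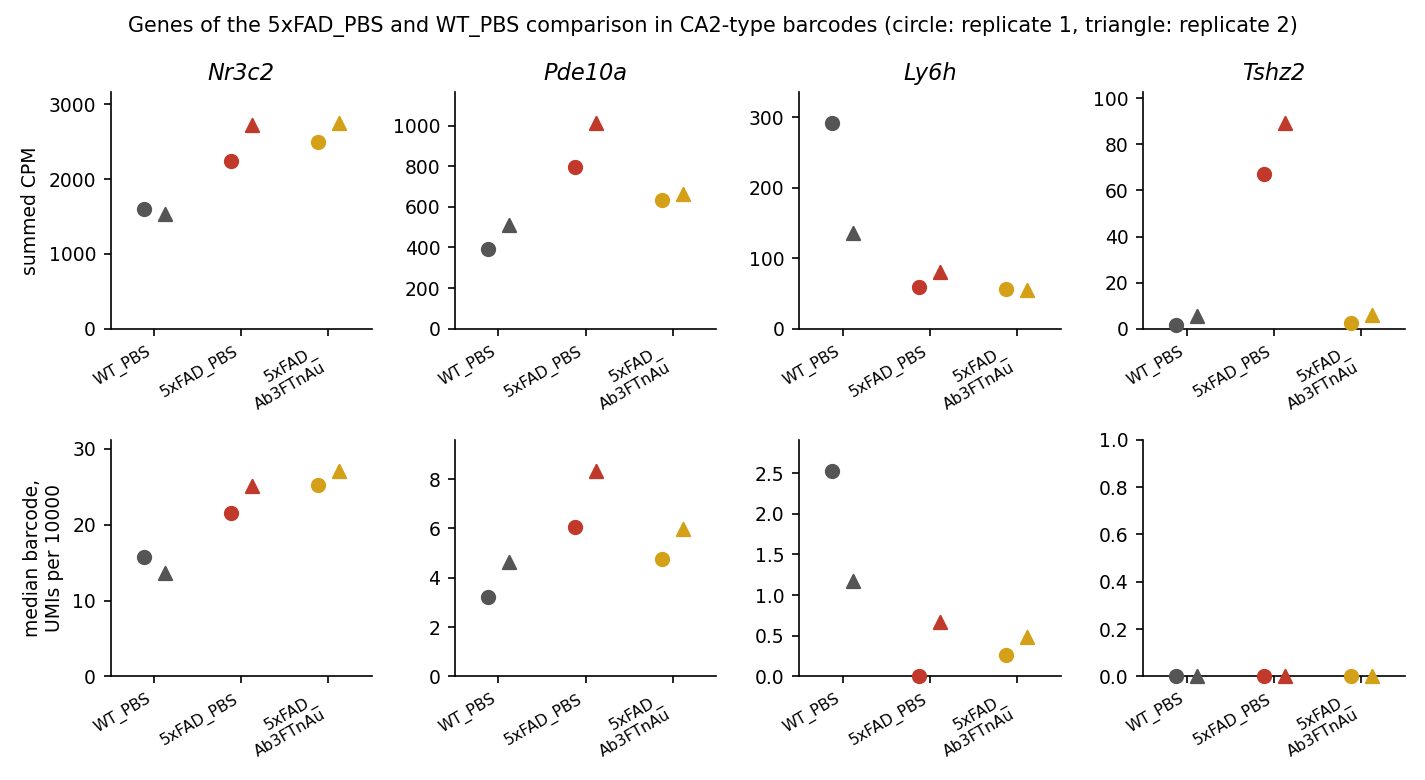
Nr3c2, Pde10a, Ly6h and Tshz2 in CA2-type barcodes of each sample. The upper row gives summed CPM and the lower row the median barcode in UMIs per 10000, with circles for replicate 1 and triangles for replicate 2. Nr3c2, Pde10a and Ly6h differ in both rows, while Tshz2 is high only in the sums of 5xFAD_PBS and has a median of 0 throughout.

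Most other CA2 genes were not called between 5xFAD_PBS and WT_PBS. Of the 14 identity genes, 11 could be tested and 1 was called (Nr3c2), beside 0.0700% called over all genes. Their median difference was 0.18 against 0.01 over all genes. Rgs14 stood at 57.5 and 54.3 CPM in WT_PBS, 35 and 23.9 in 5xFAD_PBS, and 25.8 and 45.9 in 5xFAD_Ab3FTnAu, a difference of -0.88 that was not called. Pcp4 went the other way, at 36.9 and 32.6, 70.0 and 54.4, and 68.7 and 61.2 CPM, a difference of 0.86 that was not called either.

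Genes tied to the transgenes or the disease were not called between these groups. App stood at 450 and 445 CPM in WT_PBS, 592 and 503 in 5xFAD_PBS, and 525 and 559 in 5xFAD_Ab3FTnAu, differences of 0.35 and 0.28 from WT_PBS that were not called. The labels do not say whether reads of the human APP transgene were counted at App. Thy1, whose promoter drives the transgenes, ranged from 16.3 to 84.9 CPM and was not called in any comparison with all libraries. For 5xFAD_Ab3FTnAu against 5xFAD_PBS, 5 of 19 alternative fits called Thy1 lower, over a range of -2.57 to -0.56 for the difference. Of 19 tested genes linked to amyloid or Alzheimer's disease, none was called between 5xFAD_PBS and WT_PBS, and the median difference was 0.06. Over all genes tested 0.0700% were called, so a list of this size without a call is not read as a result.

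Treatment with Aβ3FTnAu was compared with PBS in 5×FAD mice. Of 7139 genes, 70 were called, 0.981%, of which 37 (0.518%) were higher and 33 (0.462%) lower in 5xFAD_Ab3FTnAu. The count was 449 and 454 without WT_PBS replicate 1 and 2, 9 and 14 without 5xFAD_PBS replicate 1 and 2, and 12 and 4 without either treated library. Values that did not overlap between the groups were found for 47.3% of all genes tested. RNA class divided them: 27 of the 37 higher genes were noncoding and 30 of the 33 lower genes were protein coding, where 683 of the genes tested were noncoding and 6452 coding. The median difference was 0.51 over noncoding and -0.05 over coding genes, beside -0.03 over all. This runs with the noncoding share of the libraries given above, and its part in the calls was not tested.

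Mitochondrially encoded genes fell together. Of 7 tested, 5 were called lower, beside 0.462% called lower over all genes, all 7 were negative, and the median was -3.71. The complex IV subunit mt-Co3 stood at 88.8 and 82.7 CPM in 5xFAD_PBS and 2.45 and 3.53 in 5xFAD_Ab3FTnAu, a difference of -4.79 ± 0.54 (edgeR adjusted p = 0.000169), with 14.7 and 54.3 in WT_PBS. The ATP synthase subunit mt-Atp6 stood at 80.7 and 76.2 CPM against 6.14 and 5.89, a difference of -3.71 ± 0.46. Every called member was lower in both treated libraries than in either 5xFAD_PBS library. CA3 and DG sums held the same fall in summed mitochondrial level, from 406 and 431 CPM to 69.1 and 65.4 in CA3.

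Nuclear genes of oxidative phosphorylation leaned the same way without passing the test. Of 22 tested, none was called between 5xFAD_Ab3FTnAu and 5xFAD_PBS (4 had an unadjusted p under 0.05), beside 0.981% called over all genes. Of the 22, 18 were negative and the median was -0.56. DESeq2's Wald test called 9 genes in this comparison in all, against 70 by edgeR.

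Among coding genes that fell were a neuropeptide gene, a CA1 gene and a ferritin gene. Cck, the neuropeptide cholecystokinin, fell by 1.81 on the log2 scale (SE 0.31, edgeR adjusted p = 0.00932), from a median of 0.483 and 1.60 UMIs per 10000 in the 5xFAD_PBS members to 0 in both treated libraries. Man1a, a mannosidase gene from the CA1 list, fell by 1.82 (SE 0.37, adjusted p = 0.0258), and the summed level of the 3 CA1 genes outside the rule was 63.4 and 136 CPM in WT_PBS, 118 and 111 in 5xFAD_PBS, and 41.7 and 33.0 in 5xFAD_Ab3FTnAu. The 2 CA3 genes outside the rule summed to 466 and 717, 633 and 616, and 756 and 803 CPM in the same order, and the part of these markers in the calls was not tested. The ferritin heavy chain gene Fth1 fell by 1.84 (SE 0.35, adjusted p = 0.0197). Cck fell alike in CA3 sums, from 78.7 and 118 CPM to 45.1 and 37.4, and the difference between the classes was not called (-0.41 ± 0.28, adjusted p = 0.913). Fth1 fell there too, from 46.8 and 62.6 CPM to 23.8 and 23.7, and its class difference was not called (-0.50 ± 0.38, edgeR adjusted p = 0.916). Man1a stood at 126 and 99.1 CPM in CA3 against 120 and 143, and its class difference was called (-1.94 ± 0.39, edgeR adjusted p = 0.00173). Cck, Man1a and Fth1 were picked after their values were seen.

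Several further falls traced back to high values in 5xFAD_PBS. Sgcz, a sarcoglycan, stood at 28.0 and 59.8 CPM in WT_PBS, 105 and 93.6 in 5xFAD_PBS, and 22.1 and 14.1 in 5xFAD_Ab3FTnAu, a fall of 2.49 ± 0.36 between the 5×FAD groups. Tshz2, Ptprt and Chsy3 fell by 4.22, 2.5 and 2.06, with most of their 5xFAD_PBS UMIs in the 2 barcodes described above. Gabrg3, a GABA-A receptor subunit, stood at 75.2 and 54.3, 226 and 176, and 110 and 45.9 CPM, a fall of 1.41 ± 0.30 (edgeR adjusted p = 0.0327). The Gabrg3 call was kept in 8 of 19 alternative fits, with differences from -2.15 to -0.03. It was lost without the 2 Tshz2 barcodes (-1.11, adjusted p = 0.125) and in members with a UMI of Rgs14, Pcp4, Necab2 or Cacng5 (-0.63, adjusted p = 0.560). Htr2c, the serotonin 2C receptor, was the called member of the hormone and neuromodulator receptors, at 64.6 and 67.5 CPM against 30.7 and 9.42, with 38.2% of the higher group's UMIs in 1 barcode.

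Coding genes that rose were few. Lrig1, a brake on receptor tyrosine kinases, stood at 26.5 and 32.6 CPM in WT_PBS, 8.07 and 4.35 in 5xFAD_PBS, and 43.0 and 37.7 in 5xFAD_Ab3FTnAu, a rise of 2.64 ± 0.52 over 5xFAD_PBS (edgeR adjusted p = 0.0235). Gins2, a subunit of the replicative helicase complex, stood at 8.85 and 27.2, 35 and 19.6, and 89.6 and 115 CPM, a rise of 1.88 ± 0.37 (adjusted p = 0.0223). Cd226 and Muc15 rose by 1.84 and 1.83, beside the noncoding genes C330002G04Rik, Macrod2os1, Gm44026 and Gm43915 with rises of 1.84 to 2.31. Lrig1 was thus lowest in 5xFAD_PBS, while Gins2 was highest in the treated libraries. The Lrig1 values in 5xFAD_PBS are near the floor, a few UMIs out of 371529 and 459373. Each of these 4 coding genes was called in 2 of the 6 fits that left out a library.

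Of 11 identity genes tested between 5xFAD_Ab3FTnAu and 5xFAD_PBS, edgeR called none, beside 0.981% called over all genes. Among them 1 had an unadjusted p under 0.05, and the median was 0.26 against -0.03 over all genes. Nr3c2 differed by 0.02 between the 5×FAD groups (adjusted p = 0.966, edgeR), and Pde10a was not called. Between the CA2-type and CA1 sums, Pde10a differed in its response to treatment by -1.17 ± 0.27 (edgeR adjusted p = 0.0233), with only 3 and 4 CA1 barcodes in the treated libraries, and between CA2-type and CA3 by -0.51, which was not called (adjusted p = 0.634).

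The widest set of calls lay between 5xFAD_Ab3FTnAu and WT_PBS, where 532 genes were called, 7.45% of those tested, 328 higher (4.59%) and 204 lower (2.86%), and 47.3% of genes had values that did not overlap. Of the higher genes 201 were noncoding and 126 coding, and of the lower genes 191 were coding. The median was 0.86 over noncoding and -0.07 over coding genes. The count moved with the WT_PBS libraries: 111 genes were called without WT_PBS replicate 1 and 1429 without replicate 2, while 37 and 126 were called without treated replicate 1 and 2. Among the genes the rule reads, the fit called Spink8 of the CA1 panel, which is not read as a result.

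Nr3c2 and Ntf3 were the CA2 identity genes called, 2 of 11 tested, beside 7.45% over all genes. Nr3c2 was higher in the treated members than in WT_PBS by 0.74 ± 0.13 (edgeR adjusted p = 0.00277), and here the call held in 17 of 19 alternative fits. Nr3c2 was also higher in treated CA3 sums, at 1133 and 1121 CPM against 819 and 967 in WT_PBS. In DG sums it stood at 1305 and 1274 against 887 and 969. The difference between the classes was not tested in this comparison. In CA2-type sums Ntf3 stood at 42.8 and 54.3 CPM in WT_PBS, 64.6 and 74.0 in 5xFAD_PBS, and 102 and 91.8 in 5xFAD_Ab3FTnAu. The Ntf3 groups did not overlap, with a rise of 1.10 ± 0.29 over WT_PBS (adjusted p = 0.0248), which was 0.79 and not called without WT_PBS replicate 1 (adjusted p = 0.513).

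Of 7 perineuronal net genes tested, Has1, a hyaluronan synthase, was the 1 called, beside 7.45% over all genes. The list's median was 0.09. Has1 stood at 2.95 and 5.43 CPM in WT_PBS, 10.8 and 13.1 in 5xFAD_PBS, and 38 and 31.8 in 5xFAD_Ab3FTnAu, a count ratio of 10.0 to WT_PBS (3.26 to 49.99) with edgeR adjusted p = 0.00382, which was 0.259 without WT_PBS replicate 1. Among genes of the net proteins themselves, tenascin-R (Tnr), the most abundant, ranged from 196 to 310 CPM over the 6 libraries and Vcan from 31.0 to 54.3, and neither was called.

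Glutamate receptor genes split. Gria1, the AMPA receptor subunit GluA1, stood at 2142 and 2634 CPM in WT_PBS, 2431 and 2799 in 5xFAD_PBS, and 3581 and 3100 in 5xFAD_Ab3FTnAu, higher by 0.49 ± 0.14 (edgeR adjusted p = 0.0388). Gria2, the subunit that makes AMPA receptors impermeable to calcium, stood at 2880 and 2705, 2579 and 2277, and 2049 and 2112 CPM, lower by 0.42 ± 0.12 (difference -0.42, adjusted p = 0.0350). Cnih2, an AMPA receptor auxiliary subunit, was called lower with overlapping groups, at 98.8 and 27.2 CPM in WT_PBS against 18.4 and 29.4. These were 3 of 19 tested glutamate receptor genes, whose median was -0.18, beside 7.45% called over all genes. Grm5, the most abundant, ranged from 2802 to 3487 CPM and was not called.

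CA3 sums moved the same way for Gria1 and Gria2, and the difference between the classes in this comparison was not tested. Gria1 in CA3 stood at 1845 and 2043 CPM in WT_PBS, 2257 and 2226 in 5xFAD_PBS, and 3196 and 3007 in 5xFAD_Ab3FTnAu. Gria2 in CA3 stood at 3279 and 3214, 3025 and 2955, and 2602 and 2500 CPM in the same order. Without WT_PBS replicate 1 the Gria1 difference in CA2-type sums was 0.30 and was not called (adjusted p = 0.232), while that of Gria2 stayed at -0.42 and was called (adjusted p = 0.0386). Over the 6 fits that each left out 1 library, Gria1 was called in 3 and Gria2 in 2.

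Potassium channel and kinase genes gave 1 call for each list, in a comparison where 7.45% of all genes tested were called. Kcnj6, which encodes the G protein-gated potassium channel GIRK2, was the call among 23 potassium and HCN channel genes, at 432 and 511 CPM in WT_PBS, 579 and 518 in 5xFAD_PBS, and 728 and 672 in 5xFAD_Ab3FTnAu, higher by 0.60 ± 0.17 (edgeR adjusted p = 0.0347). The abundant Kcnip4, Kcnq5 and Kcnd2 were not called. Prkce, protein kinase C epsilon, was the call among 15 plasticity kinases and phosphatases, at 677 and 929, 972 and 1097, and 1247 and 1239 CPM, higher by 0.66 ± 0.17. Without WT_PBS replicate 1 neither was called, with differences of 0.38 for Prkce and 0.41 for Kcnj6. Kcnj6 was called in 1 of the 6 fits that left out a library. Both genes rose in CA3 sums too. There Prkce stood at 706 and 883 CPM in WT_PBS and 1189 and 1205 in 5xFAD_Ab3FTnAu, and Kcnj6 at 331 and 367 against 455 and 462. The difference between the classes was not tested in this comparison.

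Calls among calcium handling and nuclear energy genes were about as frequent as the 7.45% over all genes. Of 14 genes of calcium buffering and extrusion, Nrgn, which holds calmodulin at rest, was the call, at 89.9 and 76.0 CPM in WT_PBS, 70.0 and 76.2 in 5xFAD_PBS, and 36.8 and 49.5 in 5xFAD_Ab3FTnAu (log2 difference -0.97 ± 0.29, edgeR adjusted p = 0.0474), and it was kept in 4 of 19 alternative fits. Of 22 nuclear oxidative phosphorylation genes, 21 were negative, the median was -0.61, and Cox7b and Ndufb9 were called. Cox7b stood at 47.2 and 38, 53.8 and 37.0, and 16.0 and 15.3 CPM, a difference of -1.48 ± 0.39 (adjusted p = 0.0248). Neither was called without WT_PBS replicate 1, with -1.31 for Cox7b and -0.87 for Ndufb9 (edgeR adjusted p = 0.446 and 0.881). Of 7 mitochondrially encoded genes, mt-Co3 and mt-Atp6 were called lower, by 2.92 and 2.16 (differences of -2.92 and -2.16).

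Aplp1, a relative of App, was the only call among 19 genes linked to amyloid or Alzheimer's disease, beside 7.45% called over all genes. It stood at 147 and 76.0 CPM in WT_PBS, 86.1 and 74.0 in 5xFAD_PBS, and 58.9 and 35.3 in 5xFAD_Ab3FTnAu, with a difference of -1.38 ± 0.30 (edgeR adjusted p = 0.00907). Without WT_PBS replicate 1 it was -0.74 and was not called (adjusted p = 0.563). The same library carried much of the fall of the proton pump subunit Atp6v0c, at 342 and 59.8 CPM in WT_PBS and 35.6 and 27.1 in 5xFAD_Ab3FTnAu: -2.91 ± 0.43 with it and -0.97, not called, without it.

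**Figure D5:**
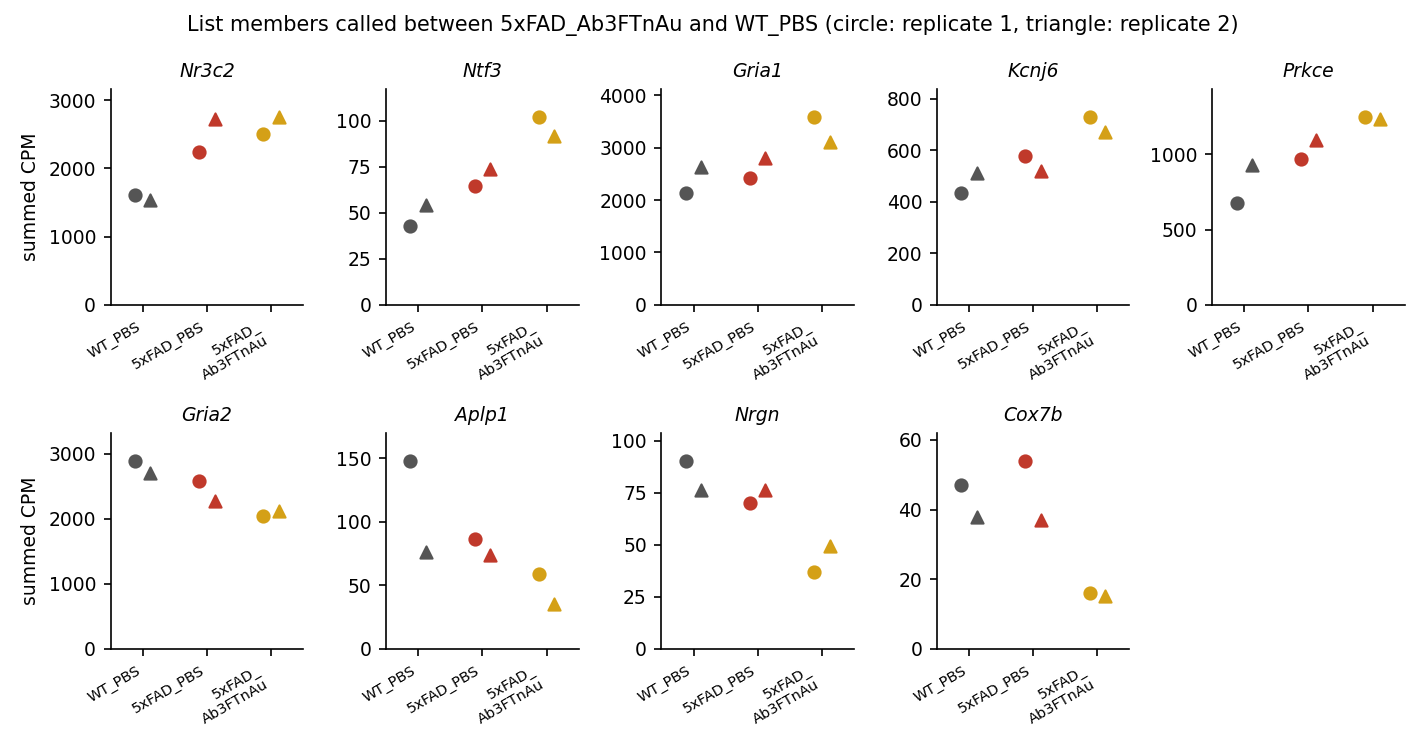
Summed CPM of 9 list members called between 5xFAD_Ab3FTnAu and WT_PBS in CA2-type barcodes, with circles for replicate 1 and triangles for replicate 2. Each vertical axis starts at 0. The treated pair lies above the WT_PBS pair for Nr3c2, Ntf3, Gria1, Kcnj6 and Prkce and below it for Gria2, Aplp1, Nrgn and Cox7b, and the 5xFAD_PBS pair lies between the 2 for some genes and beside WT_PBS for others.

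The largest rises over WT_PBS included noncoding genes. Gm26673, A730049H05Rik and Gm19605 rose by 3.53, 3.45 and 3.35, and AY036118 stood at 72.2 and 516 CPM in WT_PBS, 563 and 438 in 5xFAD_PBS, and 1930 and 1580 in 5xFAD_Ab3FTnAu, a rise of 2.90. Without WT_PBS replicate 1 the rise was 1.83 for A730049H05Rik and 1.62 for Gm19605, neither of them called (edgeR adjusted p = 0.358 and 0.157), and 1.72 for AY036118, which was called. Among the largest falls, 4930509H03Rik fell by 3.78, Slc16a11 fell by 2.98, Rnasek fell by 2.64 and Fkbp2 fell by 2.39. Of the last pair edgeR called neither without WT_PBS replicate 1, with -1.86 for Rnasek and -0.51 for Fkbp2 (adjusted p = 0.553 and 0.925). For 4930509H03Rik the WT_PBS values were 78.1 and 21.7 CPM and the treated values 3.68 and 4.71.

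Several lists gave no call in any of the 3 comparisons. These were synaptic vesicle and presynaptic genes (19 tested), cholesterol synthesis (8), immediate early genes (5) and heat shock and endoplasmic reticulum stress genes (12). Over all genes, 0.0700% were called for 5xFAD_PBS over WT_PBS, 0.981% for 5xFAD_Ab3FTnAu over 5xFAD_PBS and 7.45% for 5xFAD_Ab3FTnAu over WT_PBS. Lists of this size without a call are therefore not read as a result. The immediate early genes had medians of 0.80, -0.18 and 0.51 for 5xFAD_PBS over WT_PBS, 5xFAD_Ab3FTnAu over 5xFAD_PBS and 5xFAD_Ab3FTnAu over WT_PBS, with Bdnf at 16.2 to 45.8 CPM. The stress genes had medians of -0.17, -0.28 and -0.29.

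Whether a group difference was particular to CA2-type sums was tested as an interaction of class and group over 24 sums and 14657 genes, with each sample as a block. Between 5xFAD_PBS and WT_PBS, 7 genes (0.0478%) differed from CA1 and 32 (0.218%) from CA3. Between 5xFAD_Ab3FTnAu and 5xFAD_PBS, 31 (0.212%) differed from CA1 and 46 (0.314%) from CA3. Values below are the log2 difference in CA2-type sums minus that in the other class. A positive value can thus come from a rise in CA2-type sums, a fall in the other class, or both.

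Against CA3, the leading genes were Tshz2, Kcnh7, Gabrg3, Ptprt and Chsy3, all with a positive value for 5xFAD_PBS against WT_PBS. Kcnh7, an ether-à-go-go-related potassium channel, stood at 186 and 244 CPM in WT_PBS, 538 and 420 in 5xFAD_PBS, and 250 and 107 in 5xFAD_Ab3FTnAu. Its difference exceeded that in CA3 by 2.44 ± 0.29 and that in CA1 by 1.66 ± 0.29, while Gabrg3 exceeded CA3 by 2.33 ± 0.29 and CA1 by 1.82 ± 0.31. In CA3 sums Kcnh7 fell from 200 and 146 CPM in WT_PBS to 131 and 39.8 in 5xFAD_PBS. Gabrg3 fell there from 257 and 186 CPM to 134 and 140. The values against CA3 thus hold a fall in CA3 as well as a rise in CA2-type sums. The CA2-type UMIs of both genes lay in few members. The 4 highest barcodes of a library held 46.2% to 91.1% of its Kcnh7 UMIs and 46.7% to 90.0% of its Gabrg3 UMIs. For Nr3c2 this share was 12.1% to 51.6%. The median member held 0 Gabrg3 UMIs in every library.

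Without the 2 Tshz2 barcodes, a setting added after seeing the data, the excess over CA3 was 2.81 for Tshz2, 0.31 for Ptprt and 1.81 for Chsy3, none of them called. Under the same setting 15 genes differed from CA3 between 5xFAD_PBS and WT_PBS, and 22 between the 5×FAD groups. Counting only the 217 members with a UMI of Rgs14, Pcp4, Necab2 or Cacng5, the excess of Gabrg3 and Kcnh7 over CA1 was no longer called.

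Slc35f1, a member of a solute carrier family, differed from CA3 in its response to treatment. It stood at 84.0 and 103 CPM in WT_PBS, 140 and 93.6 in 5xFAD_PBS, and 68.7 and 87.1 in 5xFAD_Ab3FTnAu in CA2-type sums, with a difference of -1.81 ± 0.26 from CA3. The CA3 sums held 88.9 and 76.8, 60.8 and 37.7, and 107 and 138 CPM in the same order, so the wider move between the 5×FAD groups was the one in CA3. The difference between the classes was called in 11 of 11 alternative fits, and the 4 highest barcodes held 69.2% and 51.2% of its UMIs in the 5xFAD_PBS libraries.

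Against CA1, Lrrtm4, Mctp1, Ptprd and Dpyd led the differences in response to treatment, and the values that moved most were those of the CA1 sum. Lrrtm4, a postsynaptic adhesion molecule, stayed within 2542 to 3213 CPM in CA2-type sums, while CA1 fell from 3628 and 1678 CPM in 5xFAD_PBS to 1133 and 15.1 in the treated libraries, with 3 and 4 CA1 barcodes behind these values. Ntng1, netrin-G1, went the other way in 5xFAD_PBS: it stood at 75.2 and 337 CPM in the WT_PBS CA2-type sums and 24.2 and 43.5 in 5xFAD_PBS, a difference of -2.57 ± 0.43 from CA1. In CA1 sums Ntng1 stood at 296 and 295 CPM in WT_PBS and 591 and 393 in 5xFAD_PBS. The value thus holds a rise in CA1 as well as a fall in CA2-type sums. In WT_PBS replicate 2, the 4 highest CA2-type barcodes held 55 of the 62 Ntng1 UMIs.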

How the data were processed

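Gene by barcode matrices of UMI counts for 6 libraries were used as the authors deposited them, raw and not normalized; per the file headers they came from Cell Ranger 7.1.0, and the submitters' processing notes name the mm10 build and Seurat 4.3.0.1. Intron counting is not stated in the labels or headers. Libraries held 5196 to 14993 barcodes and 32528417 to 76780861 UMIs, and all 32285 genes of each file were used.

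The quality filter (500 genes and 1000 UMIs as minimum, 15% mitochondrial UMIs as maximum) passed 44736 barcodes, of which 35185 passed the neuron gate and 9406 were assigned by a panel. The DG panel was Prox1, Glis3, Plk5, Stra6 and Dsp, the CA1 panel Fibcd1, Spink8, Wfs1 and Pou3f1, and the CA3 panel Nectin3, Cd109, Rerg and Ifi203, each assigned by the rule used for CA2. A barcode sequence shared by 2 libraries was found 293 times among all barcodes and 0 times among CA2-type ones. Doublets were kept; Scrublet (scanpy 1.11.5) marked 0 to 5.81% of a library at its automatic threshold, and the alternative without doublets removed the 3080 highest-scoring barcodes, 18 of them CA2-type.

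UMIs were summed per library and class and tested with edgeR 4.0.16 in R 4.3.3 (filterByExpr, TMM factors, quasi-likelihood F test, all 6 libraries in 1 fit, Benjamini-Hochberg adjustment). The interaction of class and group was fitted over 24 sums with the sample as a block. Shares were compared by exact permutation over samples. The scripts were tested on simulated data. Alternatives were DESeq2 1.42.0 (size factors and Wald test), no count filter, a replicate block, each library left out, stricter panels, barcodes with or without mitochondrial UMIs, equal numbers of 14 barcodes a library and, added after seeing the data, thinning to 8000 UMIs, members capped at 5000 UMIs, members without the 2 Tshz2 barcodes and members with a UMI of Rgs14, Pcp4, Necab2 or Cacng5.

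Gene positions and classes came from GENCODE vM21 (GRCm38/mm10), matched by gene ID for 32235 of 32285 genes. Named genes were the CA2 identity genes, up to 8 largest rises and falls among called genes with non-overlapping groups and at least 20 CPM, called members and the 3 most abundant members of 15 gene lists, App, Thy1, Apoe, C4b, Clu and Mapt, and the 5 smallest p of each interaction test. The members, lists and tests were chosen with earlier results of these data known. Some genes that these rules take are not reported here. Sequences are not shown, because no measurement here bears on a site or promoter.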

Additional observations from a re-analysis of the deposited data

Results flagged for a closer look

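Each result here differs between CA2-type neurons and another class under the same contrast, by edgeR's interaction test. Groups of 2 samples are too small to test for a library that lies apart. Values are log2 differences in CA2-type sums minus those in the other class.

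For 5xFAD_PBS against WT_PBS, the difference in CA2-type sums exceeded that in CA3 sums by 6.44 for Tshz2, 3.11 for Ptprt, 2.81 for Chsy3, 2.44 for Kcnh7 and 2.33 for Gabrg3. Against CA1 sums it was larger by 1.82 for Gabrg3, 1.66 for Kcnh7 and 1.41 for Pde10a. Ntng1 and the lincRNA A330008L17Rik gave negative values against CA1, -2.57 and -1.51. Most 5xFAD_PBS UMIs of Tshz2, Ptprt and Chsy3 in CA2-type sums lay in 2 barcodes. The CA3 sums of Kcnh7 and Gabrg3 were lower in 5xFAD_PBS than in WT_PBS, and the CA1 sums of Ntng1 were higher.

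For 5xFAD_Ab3FTnAu against 5xFAD_PBS, CA2-type minus CA3 values were -4.74 for Tshz2, -3.21 for Ptprt, -1.87 for Gabrg3 and -1.81 for Slc35f1. CA2-type minus CA1 values were 3.55 for Mctp1, 3.21 for Lrrtm4, 2.49 for Dpyd, 1.35 for Ptprd and -2.43 for Kirrel3. The CA1 side of these values came from 3 and 4 barcodes in the treated libraries.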

How the results depend on the processing

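The counts of genes called in CA2-type sums are given in the order 5xFAD_PBS against WT_PBS, 5xFAD_Ab3FTnAu against 5xFAD_PBS, and 5xFAD_Ab3FTnAu against WT_PBS, where edgeR gave 5, 70 and 532. DESeq2 size factors gave 1, 67 and 521. DESeq2's Wald test gave 0 (139 genes at an unadjusted p under 0.05), 9 and 75. Without the low-count filter they were 70, 260 and 825. Leaving out 1 library at a time gave 0 to 485, 4 to 454 and 37 to 1429; the lone sample of the shortened group is then assumed to vary like the others. Removing doublets gave 5, 119 and 513, a panel sum of 6 gave 1, 3 and 190, and a panel at least 2 times the next gave 0, 21 and 404. Members without mitochondrial UMIs gave 2, 37 and 256, and those with at least 1 gave 0, 1 and 48. Equal barcode numbers gave 2, 36 and 78. Of the settings added after seeing the data, leaving out the 2 Tshz2 barcodes gave 0, 31 and 497, capping depth at 5000 UMIs gave 0, 35 and 267, and keeping members with a UMI of Rgs14, Pcp4, Necab2 or Cacng5 gave 2, 57 and 445. Fewer barcodes or UMIs enter most of these fits; beyond that the cause was not tested.

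Same-numbered samples did not deviate together (correlations of -0.024, -0.027 and 0.018 across genes). With 2 samples a group the deviations mirror each other and hold much counting noise. This check therefore cannot decide whether the numbers pair the samples. With the replicate block the counts were 4, 46 and 368.

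The interaction counts are given for 5xFAD_PBS against WT_PBS and 5xFAD_Ab3FTnAu against 5xFAD_PBS, first for CA1 (7 and 31) and then for CA3 (32 and 46). They were 21, 48, 47 and 63 without the low-count filter and 1, 18, 8 and 20 with the other classes thinned to the CA2-type number of barcodes. Leaving out 1 library gave 12 to 35, 17 to 54, 12 to 50 and 25 to 69. The 3 added settings gave 9, 36, 15 and 22 without the Tshz2 barcodes, 11, 56, 15 and 21 with depth capped, and 6, 34, 25 and 24 with the 4 marker genes.

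The CA2-type share kept its direction for treated against both other groups in every setting run. For 5xFAD_PBS against WT_PBS the difference of -0.36 points reversed to 0.0964 with all gated barcodes as denominator, 0.13 after thinning to 8000 UMIs, and 0.375 without WT_PBS replicate 1. Leaving out 1 library gave -1.10 to 0.375 there, 3.88 to 5.00 for treated against 5xFAD_PBS and 3.34 to 4.81 for treated against WT_PBS.

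Over the named genes, 828 refitted values kept their side of the threshold, 380 lost a call, 5 gained one (Thy1, lower in treated than in 5xFAD_PBS) and 6 reversed, and for the named interaction genes 195 kept it, 25 lost it and 0 reversed. The reversals were all in genes without a call: Fgf2 0.012 for 5xFAD_PBS against WT_PBS without WT_PBS replicate 1 (range -1.32 to 0.012 over libraries left out), Thy1 0.61 for treated against WT_PBS without the same library (range -0.71 to 0.61), Rgs14 0.0848 for 5xFAD_PBS against WT_PBS and -0.54 for treated against 5xFAD_PBS in members without mitochondrial UMIs, Rgs14 -0.19 for treated against 5xFAD_PBS without treated replicate 2 (range -0.19 to 0.62), and Pcp4 -0.40 for treated against 5xFAD_PBS in members without mitochondrial UMIs. With 14 to 77 members a library, genes at a few CPM rest on single UMIs.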
